A study of Mus musculus with 8 samples.

Results

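Type I interferon signalling was followed through 9 genes: the receptor subunits Ifnar1 and Ifnar2, the transcription factors Stat2, Irf9, Irf7, Irf1, Irf2 and Irf3, and the inhibitor Socs1. They were chosen by gene symbol, and each symbol matched 1 row, so that 9 of the 28712 genes listed in either deposited table are described. RNA-seq was performed on 4T1 cells, a mouse mammary tumor line labelled as triple-negative breast cancer, kept at 37 °C and 1% O2. The 3 groups used here were sdAb#07.81 (24 h), sdAb-Con (48 h) and sdAb#07.81 (48 h), with 2 libraries each. A single-domain antibody (sdAb) is a small antibody fragment, sdAb#07.81 was selected against the nuclear stress protein NUPR1, and sdAb-Con is its control antibody. Both antibodies were given at 0.5 μg/mL as protein purified from HEK293F cells, carrying cOdc1, a degron from ornithine decarboxylase, a Tat domain for cell entry and Flag and His tags. The Con group was not analysed here. No control antibody at 24 h was analysed, so sdAb#07.81 (24 h) and sdAb-Con (48 h) differ in both antibody and time, and these cannot be told apart. One table names its second group Nab-48h, which was taken as sdAb-Con (48 h), the only other group labelled 48 h.

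The libraries of each group are called a and b, because the deposited values carry no replicate number. Nothing in the labels says that libraries a and b came from separate cultures, so the p-values measure the spread between these libraries, which may be technical. Whole read counts were recovered for 99.6% of genes, and the libraries held between 13107294 and 16147786 reads in those genes. A normalized count is a read count divided by the size factor of its library. Nupr1, the gene of the antibody's target protein, had 2919 and 2921 normalized counts in sdAb#07.81 (48 h), 3579 and 2999 in sdAb-Con (48 h) and 1554 and 2134 in sdAb#07.81 (24 h). Nupr1 did not pass the test between the antibodies (log2 fold change -0.17, adjusted p = 0.466). It was higher over time (0.68, adjusted p = 0.000523) and in sdAb-Con (48 h) against sdAb#07.81 (24 h) (0.85, adjusted p = 4.64e-05). The antibody acts on protein, so these RNA levels do not check the labels. Of 7 epithelial markers 6 had recovered counts, and they summed to between 35484 and 44246 normalized counts per library, with Krt18 the most abundant. Between the antibodies and over time 5 of these 6 did not pass the test, and Krt14, a basal keratin, was lower (log2 fold changes -0.52, adjusted p = 0.0411, and -1.32, adjusted p = 2.24e-06). In sdAb-Con (48 h) against sdAb#07.81 (24 h), Krt7 (0.34, adjusted p = 0.0191) and Krt19 (0.35, adjusted p = 0.0197) were higher and Krt14 was lower (-0.80, adjusted p = 0.000332). Of 12 leukocyte markers 9 had counts, and their sums ranged from 576 to 745 in sdAb#07.81 (48 h), from 729 to 1116 in sdAb-Con (48 h) and from 419 to 446 in sdAb#07.81 (24 h). Those sums were made up mostly of Cd68, a lysosomal protein, while Ptprc, Cd3e, Adgre1 and Itgam, which define leukocytes, T cells and myeloid cells, had at most 4 reads in any library. The tested members of that list moved in opposite directions over time, Cd68 higher (log2 fold change 1.17, adjusted p = 5.71e-05) and Cd14 lower (-1.19, adjusted p = 0.000241). So they did in sdAb-Con (48 h) against sdAb#07.81 (24 h), with Cd68 at 1.70 (adjusted p = 6.72e-07) and Cd14 at -1.22 (adjusted p = 0.000139). The 8 fibroblast and endothelial markers summed to between 930 and 1380 and were mostly Pdgfra, which was lower over time (-0.77, adjusted p = 0.000175). The libraries of sdAb#07.81 (24 h) differed from each other in matrix genes, with 196 and 38.2 normalized counts of Col1a1, 161 and 7.64 of Col1a2 and 47.7 and 2.87 of Dcn in a and b, and Col1a2 was called higher over time (adjusted p = 0.0474). Library a of that group was close to the 48 h libraries, which had 152 to 215 of Col1a1. In sdAb-Con (48 h) against sdAb#07.81 (24 h), Col1a2 (1.82, adjusted p = 0.0453) and Dcn (1.71, adjusted p = 0.0465) were called higher. Pdgfra was lower there (-0.82, adjusted p = 7.01e-05), and Col1a1 did not pass (1.02, adjusted p = 0.0564). Without library a or b of sdAb#07.81 (24 h), the change over time was 3.72 and 4.04 on the log2 scale for Irf7, and 2.44 and 2.37 for Stat2. The part of these marker genes in the results was not tested.

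Type I interferons bind a receptor made of IFNAR1 and IFNAR2, whose kinases JAK1 and TYK2 then phosphorylate STAT proteins, among them STAT2. STAT2 and IRF9 belong to the complex ISGF3, which binds the interferon-stimulated response element (ISRE) in the promoters of target genes, whereas STAT dimers bind the gamma-activated site (GAS). IRF3 and IRF7 switch on interferon genes, IRF7 and the ISGF3 subunits are themselves interferon targets, IRF1 activates and IRF2 mostly represses ISRE genes, and SOCS1 inhibits the receptor kinases. Epithelial tumor cells as well as immune cells carry this pathway.

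Promoter windows from 250 bases before to 50 bases after each RefSeq start (GRCm38.p6) were searched on both strands for the ISRE core (GAAA, any 2 bases, then GAAA) and the GAS letters (TTC, any 3 bases, then GAA). All 9 genes had a window, and Irf1 and Irf9 had 2. The ISRE core was in a window of 3 of the 9 genes, namely Stat2, Irf2 and Socs1, against 3.99% of all 27025 genes with a window. The GAS letters were in 4 of the 9, namely Ifnar1, Ifnar2, Irf1 and Irf2, against 9.55% of all genes. Irf2 held both motifs, which did not overlap each other. No match to either was found in the windows of Irf7, Irf9 or Irf3. Of the 6 genes with a match, stretches of 4 are shown, those of the gene with the largest difference between the antibodies (Stat2), of the activator and repressor of ISRE genes (Irf1, Irf2) and of the inhibitor with few reads (Socs1). Each is read 5′ to 3′ along the gene, with the motifs in capitals, ISRE cores in Stat2 and Socs1, the GAS letters in Irf1 and an ISRE core followed by GAS letters in Irf2, and the letters of Stat2 are the reverse complement of the ISRE core.
Stat2: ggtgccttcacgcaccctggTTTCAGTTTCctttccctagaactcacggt
Irf2: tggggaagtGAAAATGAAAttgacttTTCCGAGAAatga
Socs1: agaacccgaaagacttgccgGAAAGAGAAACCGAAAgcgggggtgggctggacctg
Irf1: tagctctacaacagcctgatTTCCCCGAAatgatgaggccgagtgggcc
The Stat2 stretch lies at chr10:128270256-128270305 on the plus strand, with its motif from 222 to 213 bases before the start. That of Irf2 lies at chr8:46739495-46739533 on the plus strand, with the ISRE core from 241 to 232 bases before the start. For Socs1 it lies at chr16:10785584-10785639 on the minus strand, and 2 overlapping ISRE cores span 83 to 68 bases before the start. The Irf1 stretch, at chr11:53769904-53769952 on the plus strand, holds its GAS letters from 90 to 82 bases before the start. A match describes letters in a window and does not show that a factor binds there.

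The comparison of sdAb#07.81 (48 h) with sdAb-Con (48 h) addresses the difference between the antibody groups at one time. Stat2, Irf7 and Irf9 were higher with sdAb#07.81, by 1.22, 0.78 and 0.50 on the log2 scale, and the other 6 genes did not pass the test. Of all 13846 genes tested, 10.0% were called in either direction, 6.49% as higher and 3.51% as lower. Of these calls 64.9% were higher, and 79.7% with upper-quartile scaling, which changed no call of the 9 in this comparison. With no filter on low counts Stat2, Irf7 and Irf9 were not called (adjusted p = 0.053, 0.15 and 0.175), and 7 of all genes were. The 9 genes had a median log2 difference of 0.13, beside -0.02 over all genes tested. Comparing sdAb#07.81 (48 h) with sdAb#07.81 (24 h) addresses the change over time under the same antibody. There 7 of the 9 genes were higher at 48 h and none was lower, where 43.2% of all genes were called, 21.2% as higher and 21.9% as lower. The median of the 9 was 0.79, beside -0.01 over all genes. The difference of these comparisons is sdAb-Con (48 h) against sdAb#07.81 (24 h), in which the same number, 7 of 9, were higher, none was lower, and the median was 0.96, beside 0.00. In that comparison 50.8% of all genes were called, 25.1% as higher and 25.6% as lower. The 3 comparisons share libraries, so their values are given side by side and are not independent of each other. In bulk RNA, a higher level in each cell and more cells with a high level cannot be told apart.

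**Figure D1:**
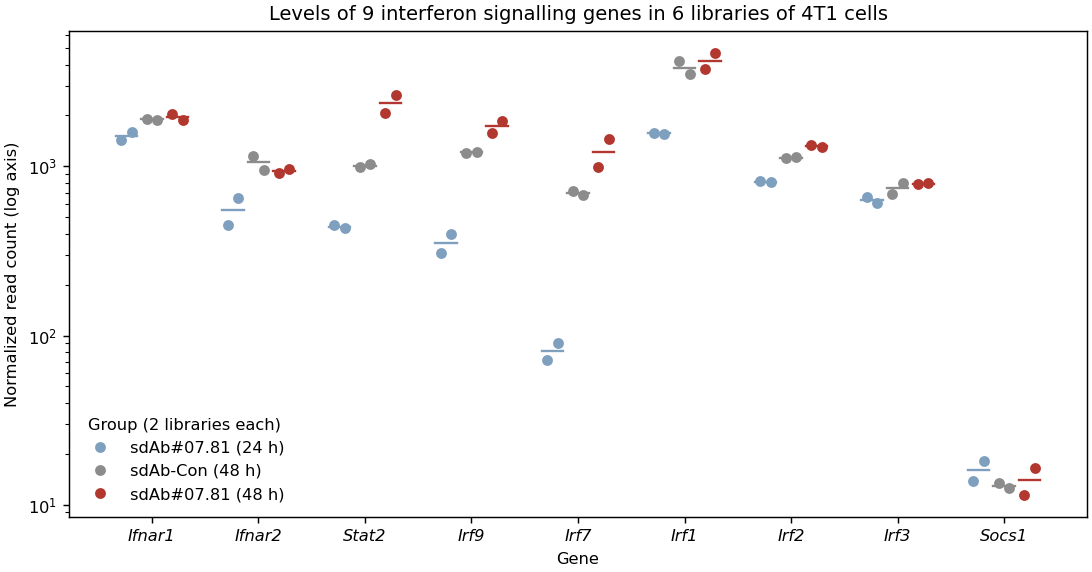
Normalized read counts (y, log axis) of the 9 genes (x) in the 2 libraries of each group, with points for libraries and short lines for group means. Stat2, Irf9, Irf7 and Irf2 separate all 3 groups, with sdAb#07.81 (24 h) lowest, while Socs1 stays between 11.5 and 18.2 in all libraries.

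Neither receptor subunit gene passed the test between the antibodies, and both were higher over time. Ifnar1 (ENSMUSG00000022967), the subunit bound by TYK2, had 2051 and 1878 normalized counts in libraries a and b of sdAb#07.81 (48 h), 1911 and 1884 in sdAb-Con (48 h) and 1441 and 1590 in sdAb#07.81 (24 h). The 48 h groups overlapped, and both lay above the 24 h group. Between the antibodies it differed by 0.05 on the log2 scale (SE 0.11, adjusted p = 0.821), with a 95% confidence interval from -0.19 to 0.28. Over time Ifnar1 was 0.37 higher (SE 0.11, adjusted p = 0.0114), and in the difference comparison it was 0.33 higher (adjusted p = 0.0216). These are the smallest of the called differences among the 9 genes. Without library a of sdAb#07.81 (48 h) or library a of sdAb#07.81 (24 h) the change over time was no longer called (adjusted p = 0.107 and 0.0861). The difference comparison lost its call without library a or b of sdAb-Con (48 h) or library a of sdAb#07.81 (24 h), with adjusted p-values of 0.0927, 0.0706 and 0.138, and also with upper-quartile scaling (0.0748) and with no filter (0.0542).

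Ifnar2 (ENSMUSG00000022971), the high-affinity ligand-binding subunit bound by JAK1, had 909 and 965 normalized counts in sdAb#07.81 (48 h), 1157 and 954 in sdAb-Con (48 h) and 450 and 651 in sdAb#07.81 (24 h). Library a of sdAb-Con (48 h) was the highest and the 24 h libraries were the lowest, although they differed by a ratio of 1.44. The log2 fold change between the antibodies was -0.17 (SE 0.15, adjusted p = 0.532). Over time it was 0.79 (SE 0.15, adjusted p = 0.000446), and in the difference comparison 0.96 (adjusted p = 5.13e-05). Both subunit genes are listed on chromosome 16, Ifnar2 from 91169671 to 91202477 and Ifnar1 from 91282126 to 91304329, each on the plus strand. The only build named in the submitters' notes is GRCh38.p14, a human build, so the mouse build of these coordinates is not known. They are not those of GRCm38.

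Stat2 (ENSMUSG00000040033, chromosome 10, 128106428 to 128128718, plus strand), the ISGF3 subunit that brings the activating domain, showed the clearest difference between the antibodies. It had 2077 and 2652 normalized counts in sdAb#07.81 (48 h), 985 and 1027 in sdAb-Con (48 h) and 450 and 432 in sdAb#07.81 (24 h). No libraries of different groups overlapped. With sdAb#07.81 at 48 h the level was 2.33-fold that with sdAb-Con (95% CI 1.93 to 2.81, log2 fold change 1.22, SE 0.13, adjusted p = 2.81e-05), on the scale of log2(normalized count + 1) used for all fold changes here. It ranked 158 from the highest among the 13846 genes in this comparison. Over time the log2 fold change was 2.41 (adjusted p = 6.65e-11), and in sdAb-Con (48 h) against sdAb#07.81 (24 h) it was 1.19 (adjusted p = 6.14e-07). Leaving out any 1 library kept the call of Stat2 against sdAb-Con, with log2 fold changes from 1.04 to 1.39.

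Irf9 (ENSMUSG00000002325, chromosome 14, 55841028 to 55847487, plus strand), the DNA-binding subunit of ISGF3, had 1585 and 1859 normalized counts in sdAb#07.81 (48 h), 1201 and 1224 in sdAb-Con (48 h) and 309 and 398 in sdAb#07.81 (24 h). The order of the groups was that of Stat2, again with no overlap, but the gap between the antibodies was smaller and the gap over time was similarly wide. Against sdAb-Con (48 h) Irf9 was higher by 0.50 (SE 0.14, adjusted p = 0.0267). That call was lost when any 1 of the 4 libraries at 48 h was left out, with adjusted p-values from 0.0881 to 0.167. Over time Irf9 was higher by 2.29 (SE 0.14, adjusted p = 3.09e-10), and in the difference comparison by 1.79 (adjusted p = 1.03e-08), each called under every setting tried. In the reference annotation Irf9 shares 2.28% of its exon bases with Rnf31 on the same strand, and how reads there were counted is not given in the sources used here.

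Irf7 (ENSMUSG00000025498, chromosome 7, 140842619 to 140846394, minus strand), the factor that amplifies interferon production once induced, varied over the widest range of the 9 genes. In sdAb#07.81 (24 h) it had 71.6 and 89.8 normalized counts, from 78 and 94 reads. Its levels were 717 and 682 in sdAb-Con (48 h) and 988 and 1454 in sdAb#07.81 (48 h). Over time Irf7 was 14.8-fold higher (log2 fold change 3.89, 95% CI 3.52 to 4.25, SE 0.17, adjusted p = 6.18e-12), and it ranked 26 from the highest among the 13846 genes. In the difference comparison it was 8.63-fold higher (log2 fold change 3.11, adjusted p = 2.05e-10) and ranked 36. The difference between the antibodies was 1.71-fold (95% CI 1.33 to 2.20, log2 fold change 0.78, adjusted p = 0.00862). It rested in good part on library b of sdAb#07.81 (48 h), which was 1.47 times library a. Without library b the log2 fold change was 0.49 (adjusted p = 0.128), and without library a or b of sdAb-Con (48 h) it was 0.81 and 0.74 (adjusted p = 0.0593 and 0.0932). Irf7 shares 1.19% of its exon bases with Phrf1 on the opposite strand, and whether the counting used strand is not given in the sources used here. Irf1 and Irf3 likewise share 3.40% and 2.56% of their exon bases with genes on the opposite strand, and Ifnar2 shares 9.46% with Gm21970, which had 0 reads.

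Irf1 (ENSMUSG00000018899, chromosome 11, 53660841 to 53669200, plus strand), an early activator of interferon and antigen presentation genes, was the most abundant of the 9 per kilobase in all 3 groups. It had 3781 and 4662 normalized counts in sdAb#07.81 (48 h), 4181 and 3504 in sdAb-Con (48 h) and 1582 and 1556 in sdAb#07.81 (24 h). The antibody groups at 48 h overlapped, and both stood well above the 24 h group. Between the antibodies Irf1 differed by 0.13 on the log2 scale (SE 0.12, adjusted p = 0.527), with a 95% confidence interval from -0.12 to 0.39. Irf1 was 1.42 higher over time (adjusted p = 4.72e-08) and 1.29 higher in the difference comparison (adjusted p = 1.38e-07).

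Irf2 (ENSMUSG00000031627), which competes with IRF1 for the same sites, had 1340 and 1295 normalized counts in sdAb#07.81 (48 h), 1122 and 1133 in sdAb-Con (48 h) and 817 and 808 in sdAb#07.81 (24 h). The ratio of library b to library a was between 0.966 and 1.01 in all groups, and no groups overlapped. Over time Irf2 was higher by 0.70 (SE 0.11, adjusted p = 8.34e-05) and in the difference comparison by 0.47 (adjusted p = 0.00214). Between the antibodies the log2 fold change of 0.22 did not pass the test (SE 0.11, adjusted p = 0.219), although both libraries of sdAb#07.81 were above both of sdAb-Con. Stat2, Irf7 and Irf9 were likewise without overlap there, 4 of the 9 with Irf2, and 27.7% of all genes tested were higher without overlap in that comparison.

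Irf3 (ENSMUSG00000003184), the constitutive factor that is switched on by phosphorylation rather than by transcription, had the narrowest range by ratio among the genes with more than 100 normalized counts. Its levels were 786 and 795 in sdAb#07.81 (48 h), 691 and 803 in sdAb-Con (48 h) and 663 and 607 in sdAb#07.81 (24 h). The log2 fold change was 0.09 against sdAb-Con (48 h) (adjusted p = 0.716), 0.32 over time (SE 0.13, adjusted p = 0.053) and 0.23 in the difference comparison (adjusted p = 0.141). None of these was called, although both 24 h libraries were below all 48 h libraries. The value over time was called after scaling by total counts (adjusted p = 0.0378) and among genes with a mean of at least 50 (adjusted p = 0.0484).

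Socs1 (ENSMUSG00000038037, chromosome 16, 10600104 to 10603400, minus strand) was near the limit of these data. The libraries held 11 and 15 reads in sdAb#07.81 (48 h), 14 and 12 in sdAb-Con (48 h) and 15 and 19 in sdAb#07.81 (24 h), or between 11.5 and 18.2 normalized counts. The log2 fold changes were 0.08, -0.19 and -0.27 in the 3 comparisons (SE 0.46, adjusted p = 0.936, 0.768 and 0.658). With an interval from -1.16 to 0.78 over time, a 2-fold lower level at 48 h was within the interval at this depth.

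**Figure D2:**
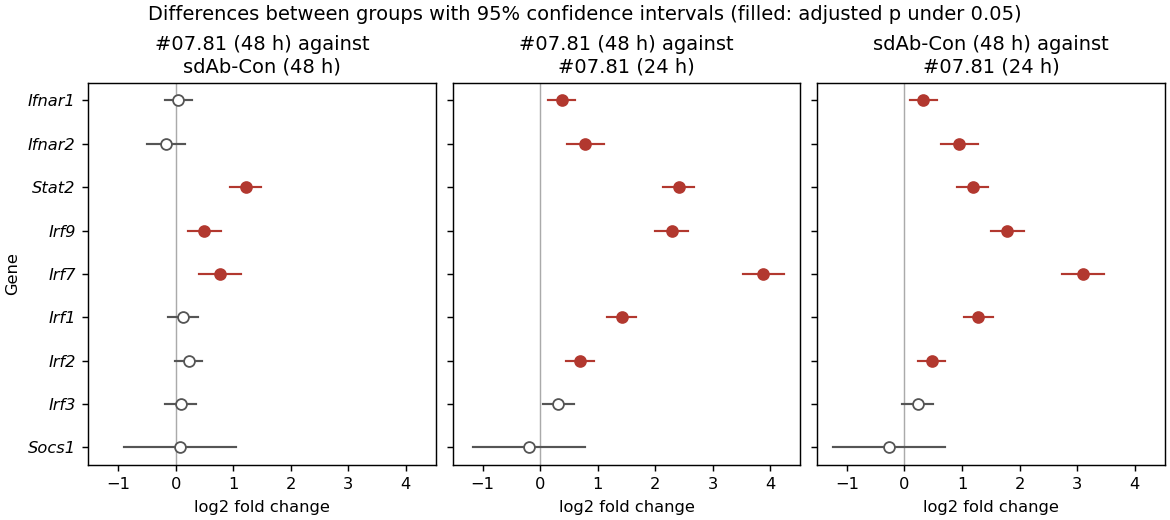
Log2 fold changes (x) of the 9 genes (y) in the 3 comparisons, with 95% confidence intervals from the fit and filled red points for an adjusted p under 0.05. Stat2, Irf9 and Irf7 are filled in the left panel, and 7 genes are filled in each of the other panels, with Irf7 farthest to the right in both.

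Per kilobase of the longest annotated transcript, the order of the genes changed between groups. Irf1 led in all groups, with 734 normalized counts per kilobase in sdAb#07.81 (24 h), 1798 in sdAb-Con (48 h) and 1975 in sdAb#07.81 (48 h). In sdAb#07.81 (24 h) the receptor gene Ifnar1 (388) and the constitutive factor Irf3 (313) followed, and Stat2 (100), Irf9 (91.4) and Irf7 (24.9) came after Irf2 and Ifnar2. Stat2 and Irf9 overlapped there and were neighbors whose order was not resolved, as were Irf2 and Ifnar2. In sdAb-Con (48 h) the order after Irf1 was Ifnar1 (485), Irf3 (368), Ifnar2 (346), Irf9 (313), Irf2 (284), Stat2 (229) and Irf7 (216), of which Irf3 and Ifnar2, and Ifnar2 and Irf9, overlapped. By sdAb#07.81 (48 h) Stat2 (538) was second, overlapping with Ifnar1 (503), which itself overlapped with Irf9 (445). Irf3 (389), Irf7 (377) and Irf2 (332) came next with overlap between neighbors, before Ifnar2 (308). The libraries of Irf7 spanned 305 to 449 and overlapped those of Irf9 (410 to 481) and Ifnar2 (298 to 317) as well, so its place was not resolved. Stat2 (472 to 603) also overlapped with Irf9. Socs1 was last in every group, at between 4.46 and 5.49 per kilobase.

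Libraries a and b of sdAb#07.81 (48 h) differed in the same direction for most of these genes. Library b was higher for 7 of the 9, with a median log2 ratio of b to a of 0.23, and Irf7 differed most, at 0.56. Over all genes tested the median log2 ratio was 0.00, and 50.2% were higher in library b. In sdAb-Con (48 h) library b was higher for 4 of the 9 genes and in sdAb#07.81 (24 h) for 5. Without library b of sdAb#07.81 (48 h), the log2 fold changes against sdAb-Con (48 h) were 1.04 for Stat2, 0.49 for Irf7 and 0.38 for Irf9. Without library a they were 1.39, 1.05 and 0.61.

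Across genes, the log2 fold change between the antibodies at 48 h also moved with transcript length (Spearman rho 0.45 over 13686 genes, which are not independent replicates). With the trend on length, GC content and level removed, Stat2 and Irf7 were still called, and Irf9 was not (log2 fold change 0.51, adjusted p = 0.0627). The rho with length was -0.13 over time and -0.33 in the difference comparison. The part of length in the results was not tested beyond this removal.

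The pathway around the 9 genes was described by lists, whose counts are read against the 10.0%, 43.2% and 50.8% of all genes called in the 3 comparisons. Of 10 ligand genes none reached the level tested. Ifnb1, the gene of interferon beta, had 2 and 4 reads in sdAb#07.81 (48 h), 3 and 0 in sdAb-Con (48 h) and 1 and 0 in sdAb#07.81 (24 h), and Ifne and Ifna5 had at most 2 reads in any library. The other 7 ligand genes had no counts to analyse here. At this depth a difference in ligand RNA was not detectable.

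Among 8 other receptors and kinases, 1 was higher with sdAb#07.81 at 48 h than with sdAb-Con and none was lower. This was Jak2, a kinase of the interferon gamma receptor, at 0.46 (SE 0.13, adjusted p = 0.0288). Over time 3 were higher, with Ifngr1 highest at 0.43 (adjusted p = 0.00711) and Ifngr2, the other gamma receptor chain, highest of 2 in the difference comparison at 0.55 (adjusted p = 0.0012). Jak1 and Tyk2, the kinases of the IFNAR receptor, were called in none of the 3. Counts of 1, 3 and 2 of 8 are near or below the shares of 10.0%, 43.2% and 50.8% over all genes, and are no result about these receptors and kinases as a list.

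Of the 4 other STAT genes tested and reported here, none passed the test between the antibodies, while over time and in the difference comparison 1 was higher and 1 lower. These counts are near or below the shares of 10.0%, 43.2% and 50.8% over all genes, and are no result about the STAT genes as a list. Stat3, which transmits interleukin 6 signals, was higher over time by 0.53 (SE 0.11, adjusted p = 0.000784) and in the difference comparison by 0.41 (adjusted p = 0.00437). Its levels were 2047 and 2054 normalized counts in sdAb#07.81 (48 h), 1840 and 1948 in sdAb-Con (48 h) and 1385 and 1465 in sdAb#07.81 (24 h). Stat6, which transmits interleukin 4 signals, was lower over time, by a log2 fold change of -1.52 (adjusted p = 6.88e-09), with 810 and 882 normalized counts in sdAb#07.81 (48 h) and 2458 and 2410 in sdAb#07.81 (24 h). In the difference comparison its log2 fold change was -1.39 (adjusted p = 2.29e-08).

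The other IRF genes and IRF2-binding partners did not pass the test between the antibodies, 0 of 6 tested. Over time Irf5, a factor of inflammatory cytokine genes, was highest at 0.76 (adjusted p = 0.00536), Irf2bp2 was also higher, and the IRF2-binding corepressor gene Irf2bp1 was lower, at -0.54 (adjusted p = 0.0187). In the difference comparison Irf2bp2 was higher at 0.29 (adjusted p = 0.0406) and Irf2bp1 lower at -0.47 (adjusted p = 0.0316). Such counts are near or below the shares of 10.0%, 43.2% and 50.8% over all genes, and are no result about these genes as a list.

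Of 16 other inhibitors, 2 were higher between the antibodies and none was lower. Usp18, an interferon-induced protease that blocks IFNAR2, had 884 and 1517 normalized counts in sdAb#07.81 (48 h), 494 and 439 in sdAb-Con (48 h) and 59.6 and 63.1 in sdAb#07.81 (24 h). Its groups did not overlap, and it was higher by 1.31 between the antibodies (SE 0.20, adjusted p = 0.000567), by 4.22 over time and by 2.90 in the difference comparison. Socs4 was the other, at 0.45 (adjusted p = 0.0186). Over time 2 were higher and 4 lower, with the phosphatase gene Ptpn6 lowest at -0.75 (adjusted p = 0.000931), and in the difference comparison 2 were higher and 5 lower, with Socs4 lowest at -0.84 (adjusted p = 8.54e-06). Usp18 and Socs3 were the higher genes in both. The others, 10 of 16 over time and 9 of 16 in the difference comparison, did not pass the test. The 2, 6 and 7 of 16 called in the 3 comparisons are near the shares of 10.0%, 43.2% and 50.8% over all genes, and are no result about the inhibitors as a list.

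Of 17 interferon-stimulated targets, 14 were higher with sdAb#07.81 than with sdAb-Con at 48 h and none was lower, with a median log2 fold change of 1.25. With no filter on low counts 0 of 17 were called, in a fit that called 7 of all genes. Leaving out 1 library leaves 1 in its group and also changes the number of all genes called. Counts of targets from those fits are therefore not read here. Ifit1, which binds viral RNA caps, had the highest change at 1.72 (SE 0.21, adjusted p = 8.52e-05), with 1106 and 1798 normalized counts against 412 and 442. The 3 genes that did not pass were Bst2, Psmb8 and Tap1, at 0.38, -0.04 and 0.25. Over time all 17 were higher, with a median of 3.76, and Ifi44 was highest at 5.84 (SE 0.29, adjusted p = 2.08e-11), rising from 29.4 and 86.0 normalized counts at 24 h to 2622 and 3282 at 48 h. In the difference comparison 15 of 17 were higher, with a median of 2.53, and Mx2, a GTPase that restricts viruses, was highest at 4.38 (SE 0.18, adjusted p = 6.53e-12). The chemokine gene Cxcl10 and Ifit2 did not pass there, at 0.47 and -0.16 (adjusted p = 0.0513 and 0.412). Library b of sdAb#07.81 (48 h) was above library a for all 17 targets, with a median log2 ratio of 0.47 and a highest of 0.96, and library b was higher for 3 of 17 in sdAb-Con (48 h) and 13 of 17 in sdAb#07.81 (24 h).

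**Figure D3:**
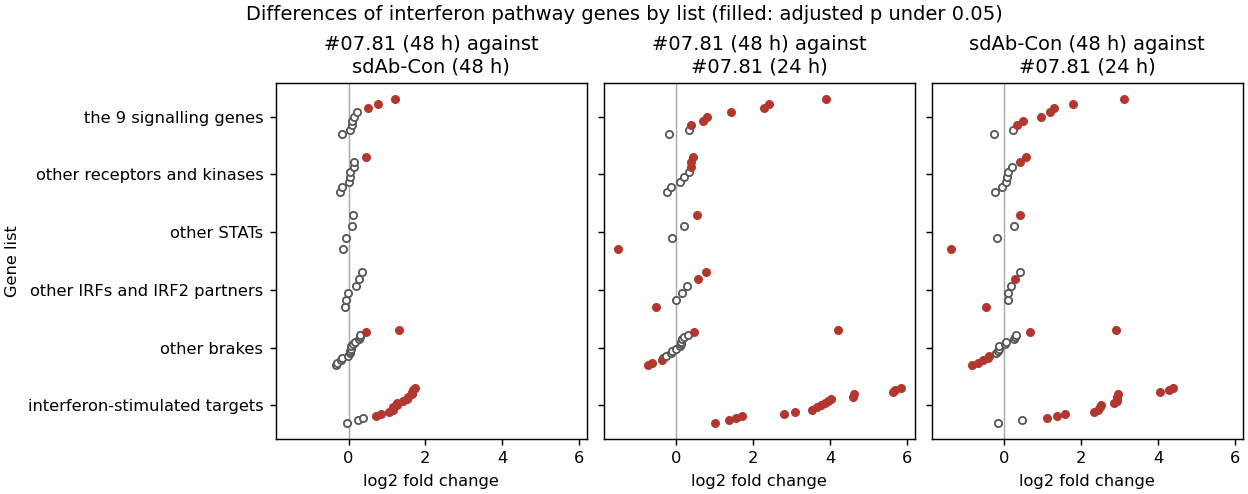
Log2 fold changes (x) of the tested genes of each list (y), 1 point per gene spread vertically within its list, with filled red points for an adjusted p under 0.05. The interferon-stimulated targets lie farthest to the right, with medians of 1.25, 3.76 and 2.53 in the 3 panels, and a single point of the other brakes, or inhibitors, (Usp18) lies near them.

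The genes whose log2 levels followed Irf7 most closely over the 6 libraries, among 10210 genes with a mean of at least 100 normalized counts, were Tap1, Apol9a, Oas1a, Dhx58 and Apol9b, with Pearson r of 1.00 or just under it (0.9985 for Apol9b). The libraries share 3 groups, so this likeness mostly describes the order of those groups. Oas1a, for example, had 97.2 and 138 normalized counts in sdAb#07.81 (24 h), 899 and 867 in sdAb-Con (48 h) and 1288 and 1929 in sdAb#07.81 (48 h). For Socs1 the 5 closest were Tmem87a (r 0.98), D6Wsu163e (0.98), Tctn2 (0.93), Slc43a2 (0.92) and Mbip (0.92). With 11 to 19 reads per library the Socs1 levels carry mostly counting error, and no pattern is read from them.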

How the data were processed

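4T1 RNA was sequenced with paired reads. The submitters' processing notes list cutadapt 1.9.1, HISAT2 2.0.1, HTSeq 0.6.1 and the build GRCh38.p14, a human build, although the genes carry mouse identifiers. The authors deposited 2 tables, each with a mean signal per gene, the mean over 4 libraries of read counts divided by size factors, beside their own fold changes, standard errors, test statistics and p-values, which were not used. The tables hold no values per library, although the test was planned for them. Genes with 1 read in 1 library gave each library's weight, and whole counts per library were solved from both means, printed to 15 significant digits. Exactly 1 solution was found for 28596 of 28712 genes, and 115 with several solutions and 1 with none were left out (22.8% and 19.2% of the summed signal). Libraries whose single-read genes were always in both tables (3515 cases, 0 missing) were assigned to sdAb#07.81 (48 h), the group that both tables compare. The other libraries lacked at least 410 such genes in the other table and took the other group of their own table.

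Counts were scaled by median-of-ratios size factors over the 6 libraries. Log2(normalized count + 1) was fitted in limma 3.58.1 (R 4.3.3) with a mean-variance trend, all 3 groups sharing the spread, for 13846 genes with a mean of at least 10, two-sided, Benjamini-Hochberg adjusted, with a threshold of 0.05. The decoding and the fit were tested on simulated data. Promoters came from RefSeq, transcript lengths and overlaps from GENCODE vM21. Other steps used Python 3.11.15, numpy 2.4.6, pandas 2.3.3 and matplotlib 3.10.9. The 9 genes are all named, and of each pathway list the called genes with the highest and lowest log2 fold change. Nupr1, the cell type markers, Irf2bp2, Jak1, Tyk2, Socs3, Bst2, Psmb8, Tap1, Cxcl10 and Ifit2 were named after their values were seen, the last 5 as exceptions to a count. The 5 genes most like Irf7 and Socs1 were named by correlation. One gene of the STAT list is not reported here. The genes and lists were chosen with earlier results of these data known. Alternatives were other scalings, filters, pseudocounts, variance weights, fewer libraries, a fold threshold and, chosen after seeing the data, removal of the trend on length, GC content and level.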

Additional observations from a re-analysis of the deposited data

How the results depend on the processing

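Over 429 values of the 9 genes under other settings, 394 kept their direction and call, 26 lost the call, 2 gained it and 7 changed sign, none of these called before or after. On the log2 scale, between the antibodies, leaving out 1 library gave Irf1 between -0.022 and 0.28, Irf3 between -0.028 and 0.19, Ifnar1 between -0.021 and 0.11 and Socs1 between -0.17 and 0.31, and over time it gave Socs1 between -0.43 and 0.048. With the length, GC and level trend removed Socs1 was at -0.065 between the antibodies and Irf3 at -0.021 in the difference comparison. Irf9 against sdAb-Con (48 h) lost its call in 7 of 16 settings, Irf7 in 5 and Stat2 in 1, the fit with no filter on low counts (adjusted p = 0.053). That fit, which adds many genes near 0 to the same trend, left 7 genes called in all between the antibodies, 0 of the 9 and 0 of the 17 interferon-stimulated targets among them. The 1384 genes called between the antibodies became 2083 with 4 libraries only, 159 when a log2 difference of 1 or more was also required and 260 with the length, GC and level trend removed. Leaving out 1 library gave between 175 (without library a of sdAb#07.81 (48 h)) and 2086. Without library a or b of sdAb-Con (48 h) it was 515 and 364. Upper-quartile scaling moved the share of these calls that were higher from 64.9% to 79.7%. Over time the 5975 called became 1603 with the fold threshold (4338 to 5745 with 1 library left out), and in the difference comparison the 7027 became 2132 (5120 to 6886). Ifnar2 and Irf2 lost their calls in the latter comparisons with the fold threshold alone. The cause of these shifts was not tested. Socs1 gave no value with a mean of at least 50. Leaving out a library leaves 1 in its group, which is assumed to vary like the others. No paired analysis was possible because the recovered libraries carry no replicate number, and a second count test, planned only for tables with counts per library, was not run on the recovered counts. Depth limits Socs1 and the ligands.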
